A study of Mus musculus with 28 samples.

Results

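This account follows germ cells without Stra8 from 18 to 48 h after retinoic acid. Its members are the 4 of the 28 libraries labelled knockout (KO) at 18 h and at 48 h, 1 library of each time in each of the authors' count tables. The other libraries, WT and KO at 0, 12, 18, 48, 72, 96 and 120 h with 2 libraries a group, served as the comparison and shared 1 model. Every group, WT and KO, came from mice of a mixed C57BL/6 and 129s4/SvJae background given WIN 18,446 for 7 days, a compound that stops cells from making retinoic acid. The 0 h groups were collected then, and all others after an injection of retinoic acid and the stated number of hours. Cells carrying the PIWIL2-eGFP germ cell reporter were sorted from the testis before RNA was made. The labels give no age, no description of the Stra8 allele and no number of animals per library. Nor do they say whether the paired libraries of a group come from different mice. The p-values therefore rest on the spread between these libraries, and that spread may be technical.

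Retinoic acid binds its nuclear receptors (RARs and RXRs), which sit on response elements in target promoters, and it drives undifferentiated spermatogonia into differentiation. Cells exposed to it also make Cyp26 enzymes that degrade it, so a pulse of retinoic acid is followed by the decline of its direct targets. Stra8 is a target that gatekeeps meiosis in later germ cells. Blocking retinoic acid synthesis with WIN 18,446 holds spermatogonia in the undifferentiated state, and a later dose of retinoic acid starts them in step.

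Library totals were 5967615 and 4561373 reads at KO 18 h and 6706360 and 3340355 reads at KO 48 h (first and second count table, the order used for every pair of values). They lay within 913055 to 10135820 over all 28 libraries. Mitochondrial genes took 8.56% and 6.50% of reads at 18 h and 5.81% and 5.73% at 48 h. Levels correlated across 11552 genes at 0.979 between the 18 h libraries, at 0.98 between the 48 h libraries and at 0.951 to 0.959 between times. The 10 germ cell markers summed to 5917 and 6607 CPM (reads per 1000000 of the effective library size) at 18 h and to 5735 and 5716 CPM at 48 h. Markers of spermatids summed to 5.20 to 6.62 CPM in the 4 libraries, with Prm1, Prm2, Tnp2 and Tssk2 at 0 reads. Markers of Sertoli cells, the somatic nurse cells of the tubule, summed to 215 and 211 CPM at 18 h and to 312 and 252 CPM at 48 h. In WT the Sertoli sum went from 133 and 192 to 326 and 310 CPM. Peritubular myoid and stromal markers in KO went from 176 and 151 to 202 and 219 CPM. Endothelial markers in KO went down, from 76.8 and 69.7 to 53.3 and 60.6 CPM. In such bulk samples a change in the number of cells of a type and a change in RNA per cell cannot be told apart. None of the 17 Sertoli markers tested passed in edgeR or limma, 5 were higher and 1 lower at an unadjusted p under 0.05, and DESeq2 called 1 higher (Amhr2).

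Stra8 did not follow the labels evenly. The gene (ENSMUSG00000029848.11, GRCm38 chromosome 6, 34920163 to 34939344, plus strand) had 97 and 98 reads at KO 18 h, or 16.9 and 22.0 CPM. At KO 48 h the first library held 417 reads (61.9 CPM) and the second 7 reads (2.15 CPM), so the 48 h libraries lay on either side of both 18 h libraries. WT libraries had 737 and 815 CPM at 18 h and 97.9 and 198 CPM at 48 h, above every KO library of the same time. Between both KO 48 h libraries the Stra8 gap was 4.56 on the log2(CPM + 0.5) scale, rank 1 of the 10019 genes with 10 CPM or more in either of them, against a median gap of 0.20 and a next gap of 3.09. The fitted Stra8 change was 0.80 ± 0.79 on the log2 scale (SE; adjusted p = 0.795 by edgeR), and it was -3.21 (adjusted p = 0.166) without the library with 417 reads. The part of the transcript that these reads cover was not analysed here, and where the reads in that library came from was not tested. That library is called the first KO 48 h library, and values without it stand beside the results.

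Between 18 and 48 h more genes fell than rose in the cells without Stra8, and 7 of 27 tested genes of retinoic acid response and metabolism were among those that fell. Of 17519 genes tested, 276 changed at an adjusted p under 0.05 (1.58%): 103 rose (0.588%) and 173 fell (0.987%). The median change was 0.03 on the log2 scale over all genes tested, 1.40 in size among the genes that rose and 1.52 among those that fell. Changes of at least 4-fold were seen for 24 of the genes that rose and 46 of those that fell. At an unadjusted p under 0.05 there were 2219 of the 17519 genes. The list counts below stand against these all-gene counts, and a short list with no call or a single call is near the 1.58%. All lists were written with earlier results of these data known, so list counts, the 7 of 27 included, are a description. The libraries of both times did not overlap for 8780 of the 17519 genes (50.1%), and for all 276 that passed. The naming rule for the widest changes also required it, so libraries that are apart in a named gene are a description. With 1 KO library left out, 39 to 127 genes passed: 127 and 48 without the first or second 18 h library, 39 and 86 without the first or second 48 h library. All 276 kept their sign in those 4 fits. For libraries that do not overlap the sign is fixed in advance, so this adds no support.

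The genes of retinoic acid response and metabolism gave 7 falls and no rise among 27 tested members (of 30 listed; 11 lower and 2 higher at an unadjusted p under 0.05; DESeq2 and limma each called the same 7), with a median change of -0.49 against 0.03 for all genes. Those described here are Cyp26a1, Rarb, Stra6, Adh1, Rec8 and Foxn4, the last named after its values were seen. Cyp26a1, the enzyme that clears retinoic acid, had 11.5 and 25.8 CPM at 18 h and 0.445 and 0.923 CPM at 48 h, with 3 reads in each 48 h library. Both 48 h libraries were far below both 18 h libraries, and the change was -4.87 ± 0.75 (SE; adjusted p = 0.00116; 0.086 without the first KO 48 h library). Rarb, a retinoic acid receptor that is itself a direct target, had 6.27 and 5.15 CPM at 18 h and 0.742 and 0.308 CPM at 48 h. Its libraries were apart too, and its change was -3.26 ± 0.74 (adjusted p = 0.0214; 0.085 to 0.21 with any 1 of the 4 libraries left out). Of the Rarb exon bases, 38.4% overlap Top2b on the opposite strand, and reads of such a pair cannot be told apart without strand.

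Stra6, a membrane receptor for retinol uptake, had 15.3 and 22.8 CPM at 18 h and 2.23 and 0.308 CPM at 48 h, a change of -3.66 ± 0.64 (adjusted p = 0.0029; 0.06 without the second KO 48 h library). Adh1, an alcohol dehydrogenase that can oxidise retinol, had 4.70 and 9.18 CPM at 18 h and 0.445 and 0.308 CPM at 48 h, and fell by 4.06 on the log2 scale (SE 0.74; adjusted p = 0.00377; 0.068 to 0.13 without the second 18 h library or either 48 h library). Rec8, which encodes a meiotic cohesin subunit and is switched on early by retinoic acid, had 77.0 and 140 CPM at 18 h and 25.8 and 20.9 CPM at 48 h. Its change of -2.20 ± 0.34 (adjusted p = 0.00131) passed with any 1 of the 4 libraries left out (highest adjusted p 0.039). Foxn4 fell from 35.7 and 50.0 CPM to 9.06 and 5.85 CPM (-2.48 ± 0.58, adjusted p = 0.0349). Foxn4 passed in none of the 4 leave-one-out fits (0.076 to 0.26).

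Of the other retinoic acid receptors, Rara and Rarg did not pass. Rara had 43.0 and 42.1 CPM at 18 h and 39.2 and 52.0 CPM at 48 h (0.09 ± 0.27, adjusted p = 0.956). Rarg had 79.1 and 76.2 CPM and then 78.4 and 96.7 CPM (0.17 ± 0.18, adjusted p = 0.816). Kit, the receptor that marks differentiating spermatogonia and rises on retinoic acid, had 808 and 1407 CPM at 18 h and 544 and 578 CPM at 48 h. Both 48 h libraries were lower, and the change of -0.98 ± 0.35 did not pass (adjusted p = 0.206). Cyp26b1, another degrading enzyme, overlapped between times at 14.3 and 24.6 CPM and then 16.6 and 11.7 CPM (-0.43 ± 0.35, adjusted p = 0.718).

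**Figure D1:**
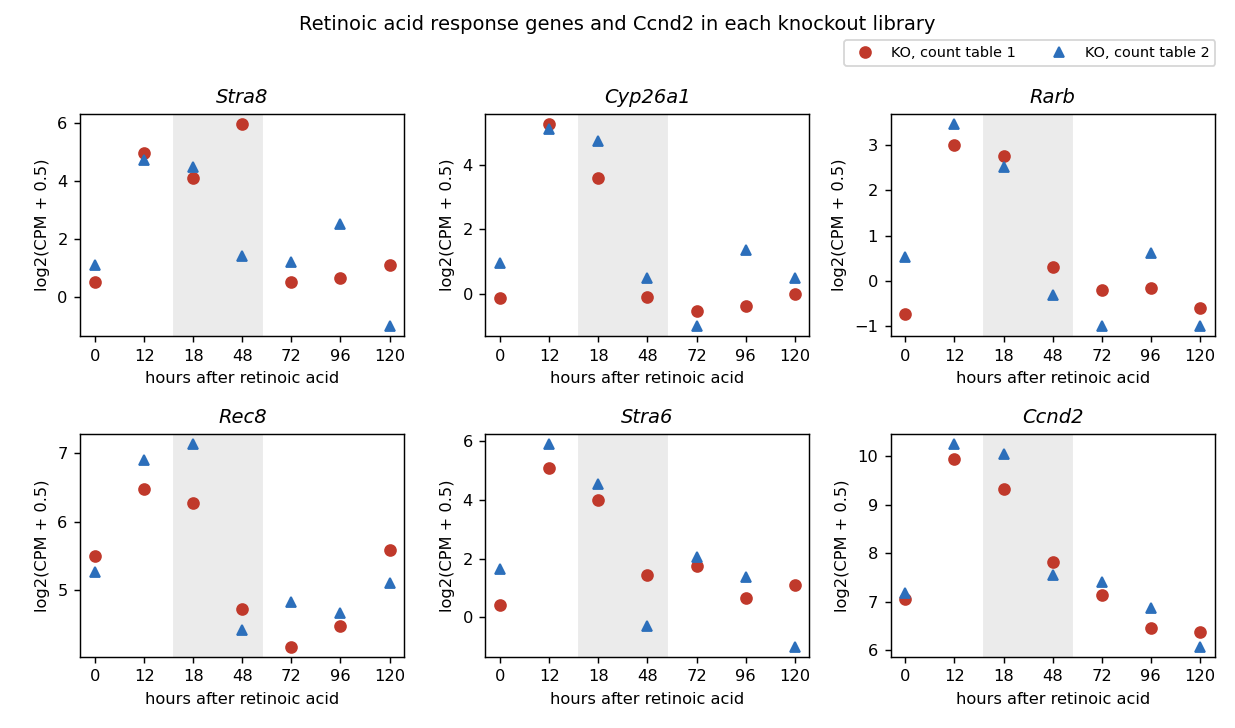
Level of 6 genes in each knockout library, as log2(CPM + 0.5), against hours after retinoic acid on an evenly spaced axis; red circles are libraries of the first count table, blue triangles of the second, and grey marks 18 and 48 h. Cyp26a1, Rarb, Stra6, Rec8 and Ccnd2 are lower in both 48 h libraries than in both 18 h libraries, while Stra8 lies at 61.9 CPM in one 48 h library and at 2.15 CPM in the other.

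The promoters of the falling genes were searched for the retinoic acid response element because it is the sequence through which the receptors act. RefSeq promoters (GRCm38.p6) were taken as the 250 bases before a RefSeq start of the gene. They were found for 129 of the 173 genes that fell, 83 of the 103 that rose and 27025 genes in all. The 27025 were not limited to the genes tested here, so they are an unlike background for the called genes. DR5, a direct repeat of the receptor's core site with a spacing of 5 bases, was present on either strand in 3 of the 129 (2.33%), in 0 of the 83 and in 28 of the 27025 (0.104%). The 3 genes were Cyp26a1, Rarb and Blvrb, the last a biliverdin reductase named here after its values were seen (20.2 and 30.2 CPM at 18 h, 4.01 and 4.31 CPM at 48 h, -2.60 ± 0.48, adjusted p = 0.0045; 0.058 to 0.13 without the second 18 h library or either 48 h library). They are printed on the strand of the gene, 5′ to 3′, with the core sites of the element in capitals. The Cyp26a1 window lies at chr19:37697558-37697807 (plus strand, element 32 to 16 bases before the start). The Rarb window lies at chr14:16575477-16575726 (minus strand, 53 to 37 bases before) and the Blvrb window at chr7:27452168-27452417 (plus strand, 19 to 3 bases before). The Rarb start used here lies inside the annotated gene, which spans 16430839 to 16819156.
Cyp26a1: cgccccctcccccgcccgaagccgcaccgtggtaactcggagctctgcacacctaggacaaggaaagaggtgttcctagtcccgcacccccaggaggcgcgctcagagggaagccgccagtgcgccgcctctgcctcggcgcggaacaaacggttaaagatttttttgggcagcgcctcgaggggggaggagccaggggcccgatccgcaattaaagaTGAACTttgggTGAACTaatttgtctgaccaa
Rarb: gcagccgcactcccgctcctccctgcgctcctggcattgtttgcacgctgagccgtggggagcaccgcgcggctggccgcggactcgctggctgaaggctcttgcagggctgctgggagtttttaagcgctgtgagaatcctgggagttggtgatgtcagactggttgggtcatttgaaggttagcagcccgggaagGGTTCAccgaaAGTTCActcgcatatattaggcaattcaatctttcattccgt
Blvrb: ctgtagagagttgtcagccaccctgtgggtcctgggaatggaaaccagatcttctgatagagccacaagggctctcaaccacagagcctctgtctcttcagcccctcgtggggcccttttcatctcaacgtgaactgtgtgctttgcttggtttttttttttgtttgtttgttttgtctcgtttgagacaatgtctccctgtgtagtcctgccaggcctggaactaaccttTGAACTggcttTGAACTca
The element reads on the opposite strand in Cyp26a1 and Blvrb and on the gene's own strand in Rarb. DR2, the repeat with a spacing of 2 bases, was in 0 of the 129, 0 of the 83 and 55 of the 27025 (0.204%). The CCAAT box (CCAAT) was in 42.6% of the genes that fell, 38.6% of those that rose and 37.5% of all. The cell cycle element CHR (TTTGAA) was in 18 of the 129 genes that fell, 14.5% of those that rose and 18.3% of all. The E2F letters TTTGGCGC, TTTCGCGC, TTTCCCGC and TTTGCCGC were in 1.55%, 4.82% and 2.16%. Both strands were searched, and motifs were allowed to overlap. A match is a description of these letters, not a bound site.

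Ccnd2, the D-type cyclin that spermatogonia raise on retinoic acid, had the smallest p among the cell cycle genes. It had 643 and 1048 CPM at 18 h and 224 and 187 CPM at 48 h, so the libraries did not overlap. The change was -2.04 ± 0.24 (adjusted p = 1.84e-04) and passed with any 1 library left out (highest adjusted p 0.0064). Mycn, a MYC family factor, fell from 114 and 116 CPM to 60.3 and 76.6 CPM (-0.75 ± 0.19, adjusted p = 0.0428; 0.074 to 0.43 with 1 library left out). These were 2 falls and no rise among 31 E2F and G1/S regulators (5 higher and 3 lower at an unadjusted p under 0.05). No gene of the downstream machinery passed, which in lists of this size is near the 1.58% of all genes tested that did. Calls were 0 of 50 DNA replication genes (1 lower at an unadjusted p under 0.05) and 0 of 47 mitosis genes (1 higher, 1 lower). Of 11 replication-dependent histone genes 0 passed (none at an unadjusted p under 0.05). This held in edgeR, DESeq2 and limma alike. Pola1, the replicative primase polymerase, had 68.3 and 63.8 CPM at 18 h and 46.5 and 37.2 CPM at 48 h (-0.65 ± 0.29, adjusted p = 0.345). Anln, a cytokinesis protein, had 277 and 219 CPM and then 171 and 191 CPM (-0.45 ± 0.20, adjusted p = 0.321).

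Among 29 genes of undifferentiated spermatogonia, 1 rose and 1 fell (6 higher and 4 lower at an unadjusted p under 0.05; DESeq2 gave the same pair and limma added Dusp6 as higher), with a median change of 0.28. T, the Brachyury factor of early undifferentiated cells, went from 0.871 and 0.448 CPM to 7.42 and 7.08 CPM (3.38 ± 0.67, adjusted p = 0.00805; 0.076 to 0.17 without either 18 h library or the first 48 h library). Pou5f1, the pluripotency factor, went the other way, from 47.4 and 43.9 CPM to 10.5 and 16.6 CPM (-1.78 ± 0.30, adjusted p = 0.00213; 0.11 without the first KO 48 h library). Zbtb16, which maintains the stem cell pool, had 372 and 345 CPM and then 438 and 567 CPM and did not pass (0.49 ± 0.26, adjusted p = 0.469). Gfra1, the GDNF co-receptor, was at 105 and 126 CPM and then 75.7 and 94.8 CPM (-0.44 ± 0.28, adjusted p = 0.58). Of 19 genes of differentiating spermatogonia only Ccnd2 passed in edgeR and DESeq2 (1 higher and 4 lower at an unadjusted p under 0.05; limma added L1td1 as lower).

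Of the meiotic genes only Rec8 passed, where 1.58% of all genes tested did. Of 20 genes of meiotic cohesin, axis and synapsis, Rec8 was the only call by each of the 3 tools (1 higher and 3 lower at an unadjusted p under 0.05), and of 27 genes of meiotic breaks and strand exchange none passed in any of them (2 higher at an unadjusted p under 0.05). Stag3, another meiotic cohesin subunit, had 395 and 492 CPM and then 458 and 490 CPM (0.10 ± 0.18, adjusted p = 0.918). Prdm9, which sets recombination hotspots, had 2.96 and 3.36 CPM and then 8.02 and 4.93 CPM (1.08 ± 0.49, adjusted p = 0.352). Of 25 piRNA pathway genes 1 fell: Piwil4, a nuclear Argonaute of transposon silencing, from 123 and 119 CPM to 41.7 and 66.2 CPM (-1.18 ± 0.27, adjusted p = 0.0232; 0.11 to 0.4 without either 18 h library or the first 48 h library), with 3 lower and 0 higher at an unadjusted p under 0.05. Its partner Piwil2, the reporter gene of the sort, was at 2082 and 2576 CPM and then 2287 and 2187 CPM (-0.06 ± 0.20, adjusted p = 0.964).

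Metabolic and stress lists held single calls, where 1.58% of all genes tested passed. Ldhb, a lactate dehydrogenase subunit, fell from 57.1 and 55.8 CPM to 20.8 and 10.8 CPM (-1.80 ± 0.39, adjusted p = 0.0147; 0.076 to 0.21 without either 18 h library or the second 48 h library), the 1 call among 25 glycolysis genes by each of the 3 tools (1 higher and 3 lower at an unadjusted p under 0.05). Mvd, an enzyme of the cholesterol pathway, rose from 54.9 and 49.5 CPM to 91.8 and 104 CPM (0.91 ± 0.15, adjusted p = 0.00237; 0.09 and 0.061 without the second library of 18 h or of 48 h), the 1 call among 31 cholesterol genes by each tool (4 higher and 1 lower at an unadjusted p under 0.05). Hspa5, the main chaperone of the endoplasmic reticulum, fell from 1168 and 1176 CPM to 490 and 564 CPM (-1.15 ± 0.25, adjusted p = 0.0175; 0.074 to 0.24 with 1 library left out), the 1 call among 29 heat shock and chaperone genes by each tool (0 higher and 5 lower at an unadjusted p under 0.05). Fgfr1, an FGF receptor, fell from 164 and 173 CPM to 91.8 and 122 CPM (-0.66 ± 0.17, adjusted p = 0.0424; 0.055 to 0.51 with 1 library left out), the 1 edgeR call among 20 genes of MAPK and FGF feedback. In that list 4 were higher and 3 lower at an unadjusted p under 0.05, the median change was 0.34, and limma added Dusp6 as higher. Irf8, an interferon regulatory factor, fell from 47.9 and 50.0 CPM to 21.7 and 25.2 CPM (-1.07 ± 0.24, adjusted p = 0.0196; 0.076 to 0.29 with 1 library left out), the 1 edgeR call among 26 interferon and antigen presentation genes. In that list 1 was higher and 6 lower at an unadjusted p under 0.05, and DESeq2 and limma added Gbp6 as lower.

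No edgeR call was made among 51 nuclear genes of oxidative phosphorylation (1 lower at an unadjusted p under 0.05; 0 in DESeq2 and limma), 13 mitochondrially encoded genes and 78 cytosolic ribosomal protein genes (none at an unadjusted p under 0.05; 0 in both), and 27 p53 target and apoptosis genes (2 higher at an unadjusted p under 0.05; 0 in both). The same held for 42 ribosome biogenesis genes (1 lower at an unadjusted p under 0.05; DESeq2 called Utp15 lower), 29 ATF4 targets (2 higher, 4 lower; DESeq2 and limma called Cebpb lower) and 27 immediate early genes (3 higher, 1 lower; limma called Zfp36 higher). It also held for 35 lysosome and autophagy genes (5 higher, 8 lower; DESeq2 called Lamp2 lower) and 36 genes of DNA methylation and Polycomb (3 higher, 4 lower; both tools called Rnf2 lower).

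Among the genes with wide rises were endocytic and signalling genes. Plch2, a phospholipase C, rose from 2.44 and 5.38 CPM to 33.4 and 28.9 CPM (3.03 ± 0.43, adjusted p = 4.48e-04). Ap5b1, a subunit of the AP-5 adaptor complex of late endosomes, rose from 2.79 and 4.93 CPM to 30.4 and 25.2 CPM (2.88 ± 0.35, adjusted p = 1.84e-04). Lrp2, the endocytic receptor megalin, rose from 15.5 and 14.1 CPM to 94.3 and 68.3 CPM (2.46 ± 0.33, adjusted p = 3.02e-04). Plch2, Ap5b1 and Lrp2 passed with any 1 library left out, with highest adjusted p of 0.019, 0.0067 and 0.019.

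Several transcription factors stood among the rises at low levels. Dlx1, a homeobox factor, went from 5.57 and 8.51 CPM to 52.3 and 41.9 CPM (2.76 ± 0.48, adjusted p = 0.00308; 0.076 and 0.057 without the first library of 18 h or of 48 h). Nobox, a homeobox factor best known from oocytes, went from 3.66 and 3.14 CPM to 22.0 and 16.3 CPM (2.49 ± 0.48, adjusted p = 0.00647; 0.076 to 0.13 without either 18 h library or the first 48 h library). Tbx1, a T-box factor, went from 3.48 and 4.48 CPM to 25.1 and 15.7 CPM (2.38 ± 0.50, adjusted p = 0.0134; 0.12 to 0.29 without the same 3). In each of them both 48 h libraries lay above both 18 h libraries, as the naming rule required. Dnah8, a dynein heavy chain of sperm tails, was higher at 227 and 156 CPM than at 43.9 and 37.0 CPM (2.25 ± 0.38, adjusted p = 0.0038; 0.051 to 0.098 without either 18 h library or the first 48 h library), with spermatid markers at 5.20 to 6.62 CPM in all.

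The other rises the naming rule took were Gal, a neuropeptide (0.522 and 0.448 CPM, then 6.24 and 4.93 CPM, adjusted p = 0.00647), and Fibcd1, Dab2, Tmc3, Mctp1 and Nexn, with changes of 2.36, 2.34, 2.34, 2.33 and 2.25 and adjusted p of 0.0143, 0.0143, 0.0349, 0.0232 and 0.0391. Gal, Fibcd1 and Dab2 passed only without the second KO 48 h library (other fits 0.066 to 0.46), and Tmc3, Mctp1 and Nexn in none of the 4 fits (0.062 to 0.44). Of the Tmc3 exon bases, 43.9% overlap Gm16638. Dab2 is an endocytic adaptor that partners Lrp2 in other tissues, and at 2.61 and 1.57 CPM and then 12.2 and 9.24 CPM its libraries were apart. The Sertoli marker sum moved up with these rises, and its part in them was not tested.

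The genes with the widest falls among the rest were led by Ccdc42, a coiled-coil gene of the sperm head and tail. It had 9.06 and 9.41 CPM at 18 h and 0.148 and 0.308 CPM at 48 h, 94 reads against 2 in all. The summed reads were 46.0-fold lower (95% exact counting interval 12.4 to 385), and the fitted change was -5.38 ± 0.71 (adjusted p = 2.78e-04; highest 0.035 with 1 library left out). C3, the central complement component, fell from 63.6 and 71.5 CPM to 6.24 and 9.24 CPM (-3.16 ± 0.41, adjusted p = 2.78e-04; highest 0.026). Ccdc88b fell from 23.7 and 37.6 CPM to 5.05 and 2.15 CPM (-2.98 ± 0.51, adjusted p = 0.00261; 0.06 without the second KO 48 h library). Scd4, a stearoyl-CoA desaturase, fell from 19.16 and 17.2 CPM to 2.08 and 1.85 CPM (-3.19 ± 0.59, adjusted p = 0.00488; 0.12 and 0.072 without the first or second 48 h library).

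Muc4, a membrane mucin, went from 5.75 and 17.9 CPM to 0.742 and 0 CPM. Rph3a, a synaptic vesicle protein, went from 10.8 and 15.01 CPM to 1.04 and 0 CPM. Oas3, an interferon-induced antiviral enzyme, went from 9.06 and 16.8 CPM to 0.742 and 1.23 CPM. Their changes were -4.58 ± 0.78, -4.26 ± 0.86 and -3.76 ± 0.72 (adjusted p = 0.00352, 0.00961 and 0.0066). Mab21l3, Card14, Liph and Lpo fell by 3.35, 3.60, 3.45 and 3.10 on the log2 scale (adjusted p = 0.00199, 0.0409, 0.0359 and 0.00805). Each of these 7 genes lost its call in at least 2 of the 4 leave-one-out fits, with highest adjusted p of 0.078 (Mab21l3) to 0.33 (Liph), and Card14 and Liph in all 4. Ambp and Krt73, named after their values were seen, had 0 reads in both 48 h libraries. Against a floor of 3 reads per library, which covers counting error only, they were at least 6.22-fold and 5.38-fold lower.

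**Figure D2:**
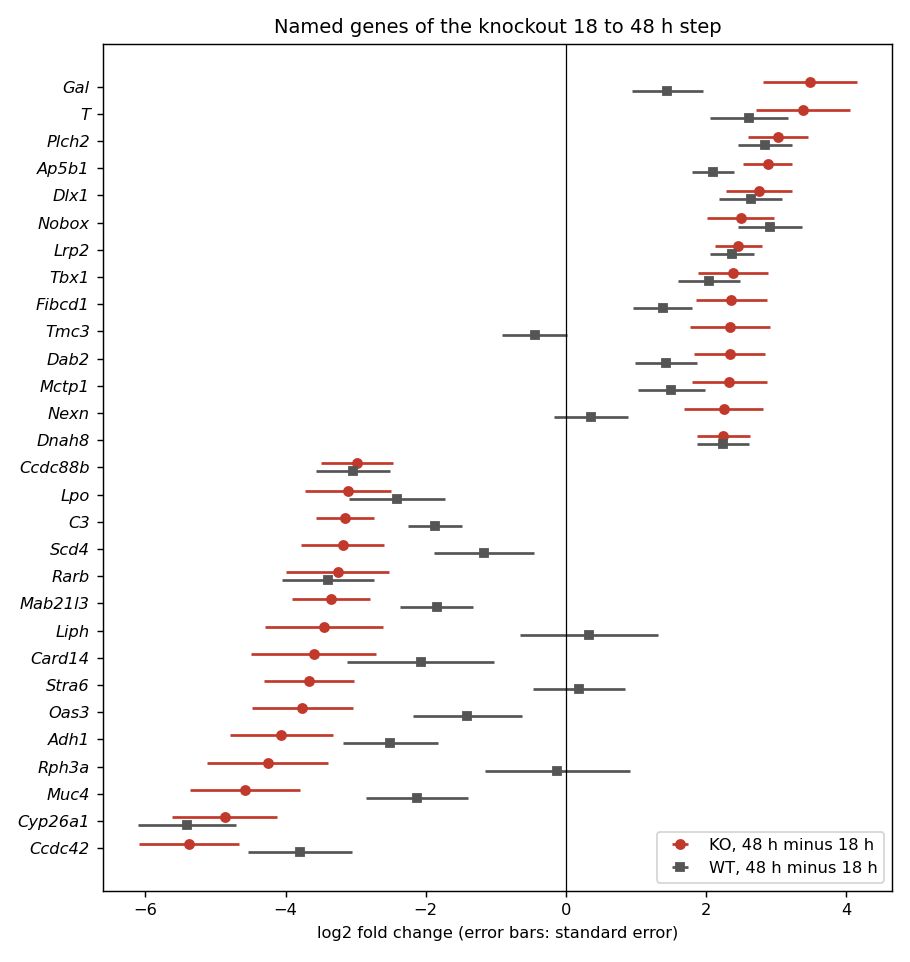
Log2 fold change from 18 to 48 h of 14 rises and 15 falls taken by the naming rule, in KO (red circles) and in WT (grey squares), with standard errors. Dlx1, Lrp2, Dnah8, Cyp26a1, Rarb and Ccdc88b have nearly the same change in both genotypes, whereas Stra6, Rph3a, Liph, Tmc3 and Nexn are near 0 in WT, a difference that passed the test for none of these 5.

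Calls that held in every one of the 4 leave-one-out fits numbered 20, of which 8 rose and 12 fell. Beside those already named, the rises were Coro2a, Crybg3, Ebf3, Fbxo32 and Fgd5, and the falls included Cln8, Glipr2, Golm1, Nid2, Plat, Slc6a6 and Smoc1. Fbxo32, the ubiquitin ligase atrogin-1, rose from 29.4 and 28.2 CPM to 83.0 and 103 CPM (1.69 ± 0.24, adjusted p = 5.21e-04). Ebf3, a helix-loop-helix factor, rose from 16.0 and 22.2 CPM to 80.8 and 60.9 CPM (1.90 ± 0.27, adjusted p = 4.48e-04). Plat, tissue plasminogen activator, fell from 67.9 and 93.2 CPM to 14.8 and 16.9 CPM (-2.35 ± 0.32, adjusted p = 2.92e-04). Glipr2 fell from 115 and 91.6 CPM to 14.6 and 18.8 CPM (-2.64 ± 0.38, adjusted p = 4.48e-04). Within each of these genes the libraries of both times did not overlap, as in every gene that passed, so this adds no support.

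The genes that fell had mostly come up earlier, between 0 and 12 h. No group without retinoic acid was taken at 12 h, so retinoic acid, the injection and time cannot be told apart. In KO libraries that took no part in the 18 to 48 h contrast, 108 of the 173 (62.4%) were higher at 12 h than at 0 h and none was lower (of all genes tested 4.13% were higher and 4.44% lower, 8.57% in all). Of the same 173, 125 (72.3%) were lower at 72 h than at 12 h and none was higher (of all genes tested 2.30% were lower and 2.29% higher, 4.59% in all). Of the 103 genes that rose, 34 (33.0%) were lower and 3 higher at 12 h than at 0 h, and 58 (56.3%) were higher and none lower at 72 h than at 12 h. These comparisons share the 12 h libraries and were added after the data had been seen, and the second 72 h library held 1078460 reads.

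Cyp26a1 shows the course: 0.420 and 1.43 CPM at 0 h, 37.7 and 34.0 CPM at 12 h, then the 18 and 48 h values above and 0.189 and 0 CPM at 72 h. Ccnd2 was at 132 and 144 CPM at 0 h, 977 and 1210 CPM at 12 h and 140 and 169 CPM at 72 h, and its 48 h level of 224 and 187 CPM lay between the 12 h and 0 h levels. Lrp2 ran the other way, with 37.0 and 26.6 CPM at 0 h, 12.0 and 9.11 CPM at 12 h and 47.0 and 80.1 CPM at 72 h. T fell from 8.39 and 5.70 CPM at 0 h to 0.551 and 0.552 CPM at 12 h and stood at 7.55 and 6.30 CPM at 72 h. Ap5b1 and Plch2 were low before the pulse as well as after it, at 3.88 and 3.801 CPM and 2.41 and 2.61 CPM at 0 h, and their rise by 48 h went past that level in both libraries.

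**Figure D3:**
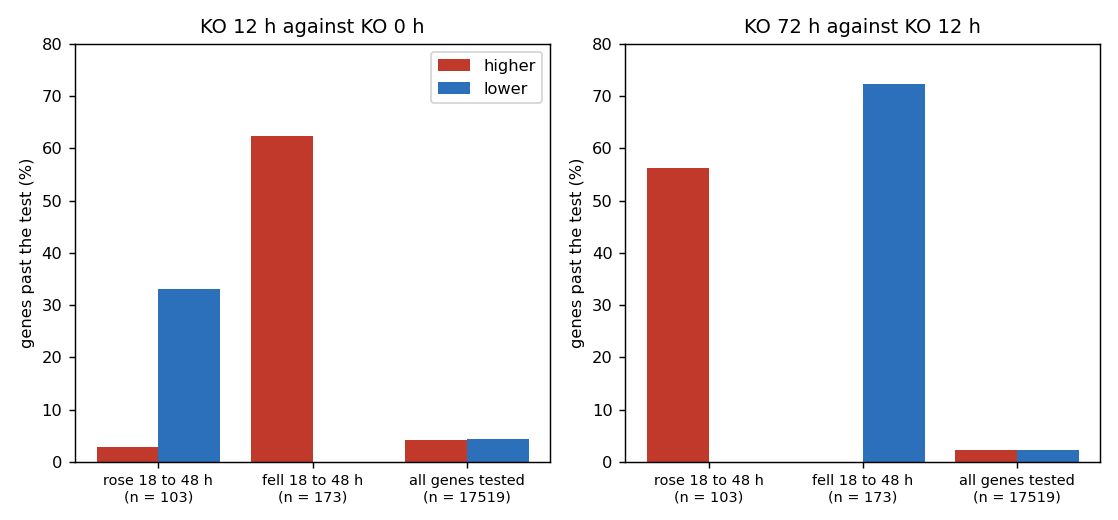
Share of genes past the test in KO libraries outside the 18 to 48 h contrast, higher in red and lower in blue, for the 103 genes that rose, the 173 that fell and all 17519 tested. Of the genes that fell, 62.4% were higher at 12 than at 0 h and 72.3% lower at 72 than at 12 h, against 4.13% and 2.30% of all genes.

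The WT step, from libraries that share no sample with the KO step, shows which of these changes also occur over the same hours with Stra8 present. In WT, 296 genes passed (1.69%), 193 higher (1.10%) and 103 lower (0.588%). Of the KO calls 80 passed in WT as well, 29.0% of the KO calls and 27.0% of the WT calls, and 79 of them had the same direction (38 higher and 41 lower). The exception was Mycn. The Sertoli marker sum was higher at 48 h in both genotypes, and its part in the shared rises was not tested. Cyp26a1 fell from 10.3 and 31.5 CPM to 0.209 and 0.792 CPM in WT (-5.40, adjusted p = 2.20e-04), and Rarb, Rec8 and Foxn4 passed there too (-3.39, -1.86 and -3.63; adjusted p = 0.00652, 0.00392 and 0.00294). Stra6 and Adh1 did not (0.19 and -2.50, adjusted p = 0.963 and 0.0608). The differences of their steps between genotypes, -3.85 and -1.56, did not pass (adjusted p = 0.284 and 1, unadjusted p = 3.72e-04 and 0.162 by edgeR). Stra6 in WT had 23.5 and 10.7 CPM at 12 h and was already at 0.883 and 2.04 CPM at 18 h. A WT fall before 18 h is not part of this step.

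**Figure D4:**
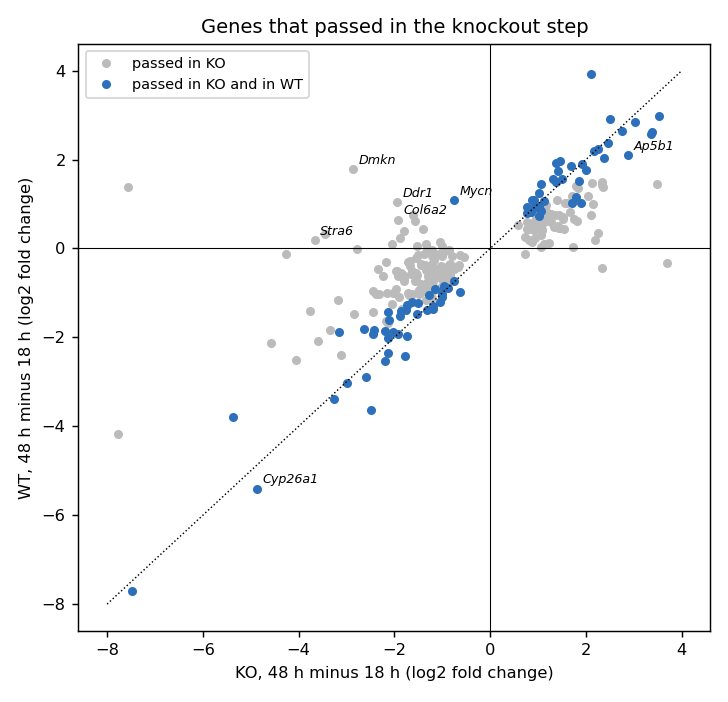
Log2 fold change from 18 to 48 h in WT against that in KO for the 276 genes that passed in KO; blue genes passed in both, grey in KO alone, and the dotted line marks equal change. The genes were chosen on the KO values of the horizontal axis, and 255 of the 276 have the same sign in WT. Of the 103 that rose 100 were positive in WT, and of the 173 that fell 155 were negative. Of all 17519 genes tested 8623 were positive and 8881 negative in WT.

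Only 9 genes had a step that differed between KO and WT past the threshold (0.0514%; 705 at an unadjusted p under 0.05), and for all 9 the KO step was the lower (0.0514%; 0 higher). Mycn had 114 and 116 CPM at KO 18 h and 60.3 and 76.6 CPM at KO 48 h, but 25.1 and 23.6 CPM at WT 18 h and 57.5 and 45.5 CPM at WT 48 h. It fell in KO and rose in WT, where the change was 1.08 (adjusted p = 0.00351), and the difference of the steps was -1.83 (adjusted p = 0.00543). Ddr1, a collagen receptor kinase, had 170 and 179 CPM and then 40.2 and 50.8 CPM in KO (-1.94 ± 0.32, adjusted p = 0.00245; 0.095 without the first KO 48 h library). In WT it had 14.2 and 20.2 CPM and then 30.8 and 40.1 CPM, a difference of -2.99 (adjusted p = 0.0103). Fbxo40, a muscle ubiquitin ligase subunit, had 61.8 and 48.4 CPM and then 27.9 and 29.6 CPM in KO, and 2.94 and 3.95 CPM and then 21.5 and 11.9 CPM in WT, a difference of -3.23 (adjusted p = 0.00543). In these 3 genes the 18 h levels were higher in both KO libraries than in both WT libraries, and by 48 h the KO and WT levels were nearer to each other.

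Dmkn and Col6a2, a chain of collagen VI, also fell in KO (-2.86 and -1.93; adjusted p = 0.00245 and 0.00308), with differences of -4.64 and -2.57. Dmkn lost its KO call without the first KO 48 h library (0.12) and Col6a2 without the second (0.081). Smoc2, Gpr56, Mobp and Pla2g7 did not pass in KO (-0.58, -0.30, -0.53 and 0.40) and rose in WT (1.48, 2.52, 2.86 and 2.78), with differences of -2.06, -2.82, -3.39 and -2.38. For Gpr56 the KO libraries overlapped between times, at 67.6 and 54.9 CPM at 18 h and 35.2 and 65.3 CPM at 48 h. No gene passed without the first KO 48 h library or without the first WT 18 h library by edgeR (545 and 585 at an unadjusted p under 0.05; 23 genes passed by DESeq2 and 11 by limma on all libraries). Whether the Stra8 reads of the first KO 48 h library bear on this count was not tested.

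**Figure D5:**
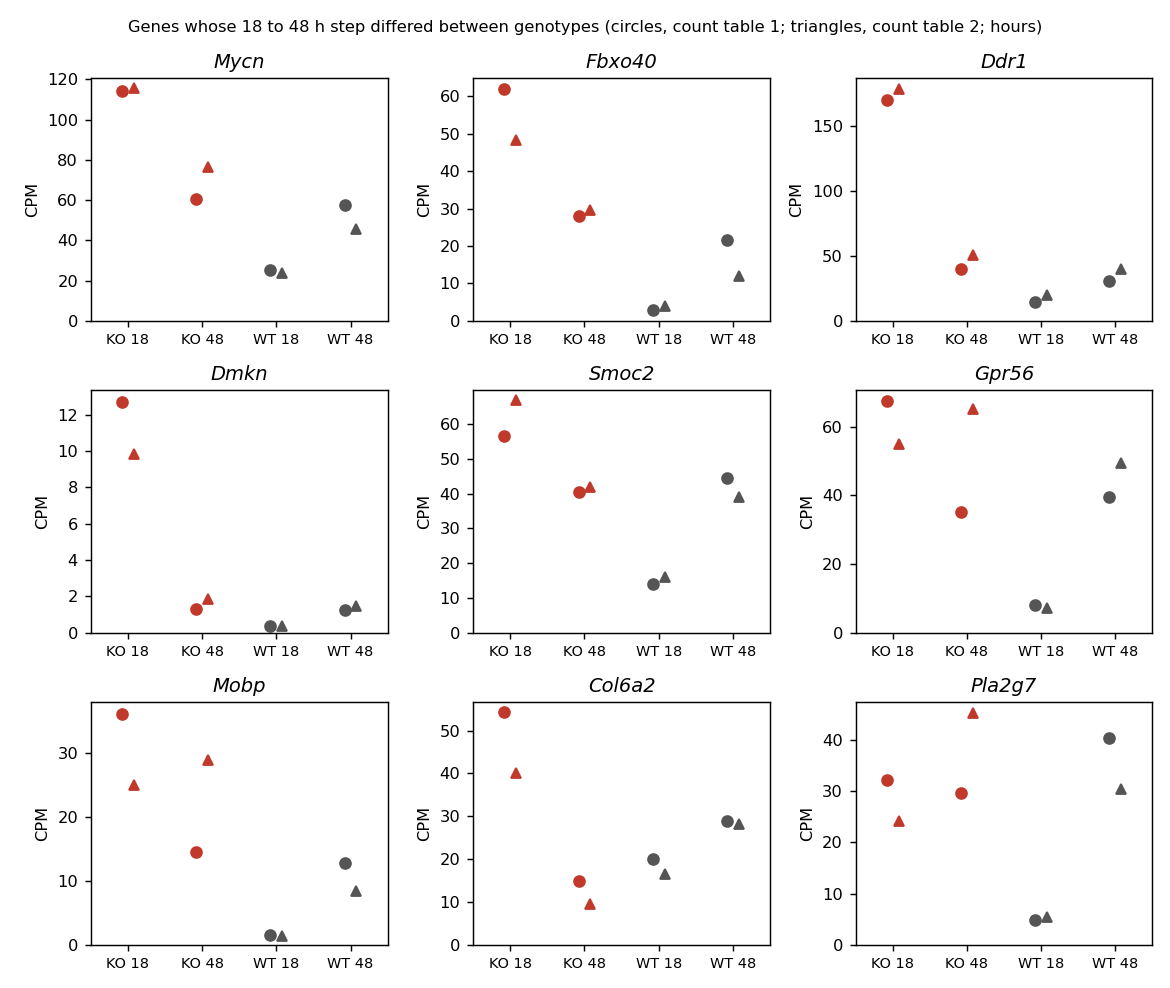
CPM of the 9 genes whose 18 to 48 h step differed between genotypes, in each KO (red) and WT (grey) library at 18 and 48 h; circles are the first count table and triangles the second. All 9 have higher levels in KO than in WT at 18 h, for example 170 and 179 against 14.2 and 20.2 CPM for Ddr1.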

How the data were processed

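PolyA RNA of sorted germ cells was sequenced on an Ion Proton, per the labels' protocols. Per the submitters' processing notes the tools were Bowtie, TopHat and Cufflinks, on mm10. Not given in the sources used here are tool versions, the program that counted reads and whether it used strand. The counts deposited are whole reads per gene symbol, in tables holding 1 library per group. Further deposited tables carry FPKM in their name, which the design allowed for. Of their 28 columns, 25 equalled a count column as CPM of its total within 0.001, so these deposited values are CPM. The KO 18 and 48 h columns matched the other-numbered count table at both times, which leaves the KO step as it is. The other 3 columns (KO at 72, 96 and 120 h) matched none, and their values were whole reads (100% within 0.1 read; totals 4479729, 4190650 and 4122223). No column of other samples was present.

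Of 43280 features, 27 with date-like names were left out. In 7 of the 14 WT libraries, those of 1 count table, 5 further entries name no gene (42.2% to 49.2% of the reads in that table); these were left out of totals and tests, and no KO library has them. The counts were tested in R 4.3.3 with edgeR 4.0.16 (TMM scaling, its default filter on low counts, 14 group means over 28 libraries, robust quasi-likelihood tests), Benjamini-Hochberg adjusted over 17519 genes per comparison with a threshold of 0.05. Every adjusted p in the text comes from this fit unless DESeq2 1.42.0 or limma 3.58.1 (on log2(CPM + 1)) is named. Changes are log2 fold changes with their standard error, and levels are CPM of effective library sizes. The fit was also run on counts simulated from its own fitted spread, with no effects shared between libraries. That run cannot check whether this spread holds for the real libraries. Depth limits the low genes most in the second KO 48 h library.

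Stra8 was named first. Named next were up to 15 genes in each direction by size of change among those that passed, with a mean of 5 CPM in either group, a gene name and libraries apart, then up to 4 members a direction of each of 25 pathway and 8 marker lists (or the 2 with the smallest p), and the genes with a differing step. Other named genes were chosen after their values were seen. A few results that these rules would name are not reported here. The members and the lists were chosen with earlier results of these data known. Exon overlaps come from GENCODE M21 on GRCm38, where 16416 tested genes matched by name, and promoters from RefSeq GRCm38.p6. Alternatives changed the scaling, filter, tool, libraries in the fit, replicate block and each library in turn.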

Additional observations from a re-analysis of the deposited data

Results flagged for a closer look

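The 18 to 48 h step differed between KO and WT, by an interaction contrast in edgeR, for 9 genes, each with a lower step in KO. The KO step minus the WT step, in log2 units, was -3.23 for Fbxo40, -1.83 for Mycn, -2.99 for Ddr1, -4.64 for Dmkn, -2.06 for Smoc2, -2.82 for Gpr56, -3.39 for Mobp, -2.57 for Col6a2 and -2.38 for Pla2g7, with adjusted p of 0.00543, 0.00543, 0.0103, 0.0121, 0.0165, 0.0239, 0.026, 0.0299 and 0.0454. DESeq2, limma and the fit on KO and WT at 18 and 48 h alone each called all 9. None of the 9 passed without the first KO 48 h library or without the first WT 18 h library. The part played by the 18 h levels, which were higher in both KO libraries than in both WT libraries for each of the 9, was not tested.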

How the results depend on the processing

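All 276 KO changes kept their sign under every alternative run. Their 18 and 48 h libraries do not overlap, so this was largely fixed in advance. Upper-quartile or RLE scaling, a filter of 1 CPM in 4 libraries, leaving out the 3 shallow KO libraries (72, 96 and 120 h) and, added after seeing the data, recovered reads in their place gave 257, 286, 277, 277 and 359 genes. DESeq2 gave 420 (278 lower), no filter 470 (184 higher, 286 lower), limma 495 (205 and 290), the 18 and 48 h libraries of both genotypes 541 (180 and 361), KO libraries only 592 (223 and 369) and the 4 libraries alone 1307 (529 and 778). Leaving out 1 of the 4 libraries gave 39 to 127 genes, 14 to 33 higher and 22 to 107 lower. The WT count of 296 became 446 by DESeq2, 480 without a filter, 587 on the 18 and 48 h libraries and 35 to 122 with 1 library left out. The count of 9 differing steps became 23 by DESeq2, 48 without a filter and 0 to 9 with 1 library left out. The cause of these shifts was not tested. The leave-one-out fits differ from the main fit both in the number of samples and in which library is absent.

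Replicate numbers are shared between groups by the labels, and deviations of same-numbered libraries correlated at 0.263 between KO 18 and 48 h and 0.625 between WT 18 and 48 h; with only 2 pairs the samples share a number, and no pairing was taken. With the replicate block, 616 genes passed in KO (254 higher, 362 lower), 640 in WT and 19 for the difference, and all 276 KO calls passed. A fit added after seeing the data, with the block and KO libraries only but without the 3 shallow ones, gave 1078 (374 and 704).

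Among the named genes signs turned only for 4 that did not pass. With 1 library left out, Stra8 ranged from -3.21 to 1.65, Gpr56 from -0.82 to 0.039, and the globins Hba-a1 from -0.91 to 0.98 and Hbb-bs from -1.54 to 1.89. By limma Stra8 was at -0.494 (adjusted p = 0.874), and in the added block fit Hba-a1 was at -0.055 (adjusted p = 0.99). Depth limits genes of a few CPM, where 1 read of the second KO 48 h library is worth 0.308 CPM.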

Other observations

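Genes of the secretory pathway and of the cell surface moved in the KO step outside the lists above; these groups were put together after the values were seen, so their counts are a description. Of 26 genes of protein folding in the endoplasmic reticulum, 24 had a negative change, as did 8322 of all 17519 genes tested. Their median was -0.49 against 0.03 for all genes. DESeq2 called 8 of them lower and limma 7. By edgeR 7 fell and none rose (14 lower and 0 higher at an unadjusted p under 0.05), where 0.987% of all genes fell. Beside Hspa5 these were Clgn, the testis form of calnexin (76.5 and 59.4 CPM, then 21.7 and 26.8 CPM, -1.50 ± 0.26, adjusted p = 0.00297), Txndc5, a disulfide isomerase (224 and 289 CPM, then 89.8 and 120 CPM, -1.29 ± 0.26, adjusted p = 0.0104), Calu, P4ha1, Dnajc10 and the stress sensor Ern1 (-0.94, -0.98, -0.97 and -0.95). Of 24 basement membrane genes, 4 fell and none rose (7 lower and 2 higher at an unadjusted p under 0.05), with a median of -0.17: Nid2, a nidogen (353 and 478 CPM, then 132 and 136 CPM, -1.63 ± 0.23), Lamb1, a laminin chain (1365 and 1614 CPM, then 399 and 631 CPM, -1.53 ± 0.25), Smoc1 (129 and 165 CPM, then 49.3 and 51.4 CPM, -1.54 ± 0.19) and Col4a1, a collagen IV chain (153 and 185 CPM, then 91.9 and 75.7 CPM, -1.01 ± 0.21), with adjusted p of 4.21e-04, 0.00145, 1.86e-04 and 0.0123. Nid2 and Smoc1 passed with any 1 of the 4 libraries left out. Lamb1 and Clgn lost their calls without the first KO 48 h library (0.083 and 0.11), and Txndc5 and Calu without that library or the second 18 h library (0.24 and 0.26, 0.14 and 0.091). Col4a1 passed only without the first 18 h library (others 0.083 to 0.18), and P4ha1, Dnajc10 and Ern1 in none of the 4 fits (0.06 to 0.43).

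Genes of signalling pathways were found on both sides. Genes that fell, picked one by one with no list or count behind them, were Sfrp1, a secreted Wnt antagonist (121 and 132 CPM, then 34.7 and 38.2 CPM, -1.80 ± 0.31, adjusted p = 0.00237; 0.083 without the first KO 48 h library), the Dishevelled binders Dact1 and Dact2 (-1.70 and -1.63, adjusted p = 0.0123 and 0.034; each passed in 1 of the 4 leave-one-out fits, others 0.051 to 0.49) and Ctnnb1, beta-catenin (630 and 874 CPM, then 394 and 477 CPM, -0.79 ± 0.17, adjusted p = 0.0136; 0.32 and 0.27 without the second 18 h or first 48 h library). Gfra3, a co-receptor of the GDNF family, fell (32.2 and 49.7 CPM, then 9.65 and 16.6 CPM, -1.67 ± 0.35, adjusted p = 0.0123; 0.2 and 0.31 without the second 18 h or first 48 h library). Receptors and factors that rose included Notch3 (3.83 and 6.05 CPM, then 19.5 and 17.5 CPM, 1.92 ± 0.46, adjusted p = 0.0323), the Hedgehog effector Gli2 (11.3 and 14.1 CPM, then 35.9 and 38.8 CPM, 1.56 ± 0.35, adjusted p = 0.0197) and the ligand Gdf11 (2.04 ± 0.40, adjusted p = 0.00805). Others were the neurotrophin receptor Ntrk3 (1.83 ± 0.45, adjusted p = 0.0369), the thyroid hormone receptor Thra (7.32 and 8.29 CPM, then 19.16 and 21.2 CPM, 1.37 ± 0.28, adjusted p = 0.0117) and the transcriptional coregulator Cited1 (17.9 and 19.3 CPM, then 72.2 and 76.3 CPM, 2.00 ± 0.35, adjusted p = 0.00349). Notch3, Gli2, Gdf11 and Thra passed in none of the 4 leave-one-out fits (0.07 to 0.37), Ntrk3 only without the second 48 h library (others 0.21 to 0.63) and Cited1 only without either 48 h library (0.063 and 0.067 without an 18 h library). The Sertoli marker sum was higher over the same step, and its part was not tested.

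The neighbouring imprinted genes Peg10 and Sgce both fell, Peg10 from 123 and 129 CPM to 31.9 and 28.9 CPM (-2.05 ± 0.36, adjusted p = 0.00474) and Sgce from 8.36 and 4.03 CPM to 2.08 and 0.616 CPM (-2.05 ± 0.53, adjusted p = 0.0474). Neither had changed from 0 to 12 h past the threshold (0.06 and 0.13, adjusted p = 0.954 and 0.918), unlike most genes that fell. Spp1, osteopontin, fell from 72.1 and 114 CPM to 16.3 and 10.2 CPM (-2.77 ± 0.66, adjusted p = 0.0435), and Tgm2, a transglutaminase known as a retinoic acid target in other cells, from 22.3 and 24.2 CPM to 4.90 and 3.39 CPM (-2.44 ± 0.55, adjusted p = 0.0207). Both were higher at 12 h than at 0 h in KO (5.18 and 2.65, adjusted p = 4.35e-04 and 0.00223). Peg10 passed in 1 of the 4 leave-one-out fits and Sgce, Spp1 and Tgm2 in none (0.068 to 0.5).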
